A study of Homo sapiens with 4 samples.

Results

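Nalm-6 is a human leukemia line with the features of pre-B cells. Its expression profile after loss of ACTR8, which encodes actin-related protein Arp8 (Arp8 KO), was compared with that of wild-type cells. The comparison rested on 2 of the 4 one-colour arrays of the series, 1 for Arp8 KO and 1 for wild-type cells. A probe was a member if its signal stood well above background on both arrays, which held for 22400 of 41000 probes (54.6%). Of these, 16955 carried a gene symbol, for 11377 of the 18199 genes that had a probe at all.

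The remaining arrays held cells without Arp5, another actin-related protein (Arp5 KO), and a culture whose label gives Arp8 overexpression (Arp8 OE). Their values are given beside those of Arp8 KO. Titles, protocol and design gave heme at 20 uM for 12 hours to every culture. A separate label field listed both knockouts as untreated, and the source field listed only Arp5 KO as such. For the knockouts, genotype and treatment therefore cannot be told apart wherever heme itself changes a gene. Arp8 KO cells came from earlier work, and neither the targeted part of the gene nor the number of clones is given in the sources used here. Each group had 1 array, so a difference below compares 2 cultures and had no biological replicate and no test.

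Arp8 is a subunit of INO80, a complex that slides and edits nucleosomes with the energy of ATP and acts in transcription, replication and repair. Together with actin and Arp4 it forms a module that contacts DNA and histones. Heme is an oxidative stress agent which also releases the repressor BACH1 from antioxidant genes, so that the activator NRF2 can act on them. The p53 protein, a transcription factor stabilised by DNA damage and other stress, drives a separate set of genes of arrest, repair and apoptosis. The study asked how INO80 takes part in the response to oxidative stress, and HMOX1 was its central gene.

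Levels below are log2 of the processed signal relative to the 75th percentile of the same array, so that 0 is that percentile, and differences are Arp8 KO minus wild type on that scale. Over the 22400 probes the differences had a median of 0.03 and quartiles of -0.24 and 0.27. Replicate spots of 182 probes printed 10 times gave a technical SD of 0.085 for a difference, which covers the spots of an array only. Before scaling, the 75th percentile was 735.1 for wild type and 655.7 for Arp8 KO, and 57.2% and 57.4% of probes stood well above background. All 4 arrays lay on 1 slide and were scanned together. No spot was saturated.

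The targeted gene was examined first. ACTR8 was read by 2 probes, and the level of the first was -1.02 in wild type, -1.11 in Arp5 KO, -1.55 in Arp8 KO and -1.01 for Arp8 OE. The second gave 0.25, 0.01, -0.44 and 0.23 in the same order. Arp8 KO was the lowest of the 4 arrays on both probes, at differences of -0.53 and -0.68, and much of the transcript signal was still there. Where the probes lie relative to the disrupted part is not known, so this reading does not settle the state of the protein. ACTR8 was not raised on the array labelled Arp8 OE, and that label is used here as a name only. Of the other INO80 genes, INO80 itself, the ATPase, was higher on both of its probes (0.995 and 1.0005), and ACTR5 differed by -0.11. The 23 probes of the complex had a median of 0.01, which turned negative, to -0.07, under quantile normalization.

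In all, 576 probes were over 2-fold higher in Arp8 KO than in wild-type cells, which is 2.57% of those measured, and 632 were over 2-fold lower, which is 2.82%. They fell on 305 and 430 named genes, and 368 of them had no gene symbol. At 4-fold the counts were 55 and 82, and at 8-fold 6 and 12. Dim probes made up most of them. With probes split by brightness into 3 sets of equal size, 4.75% of the dimmest were higher and 4.38% lower, against 0.67% and 1.5% of the brightest. Of 4163 genes with several measured probes, 25 were over 2-fold higher on every measured probe and 51 lower on every one. A further 2 had a probe past 2-fold in each direction. A spot beside one that was bright on 1 array alone was seen more often among these probes. It was found for 8.68% of the higher and 12.7% of the lower probes, against 3.1% and 3.67% of all probes, and its part in the differences was not tested. Background correction by normexp brought the counts to 203 and 303.

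**Figure D1:**
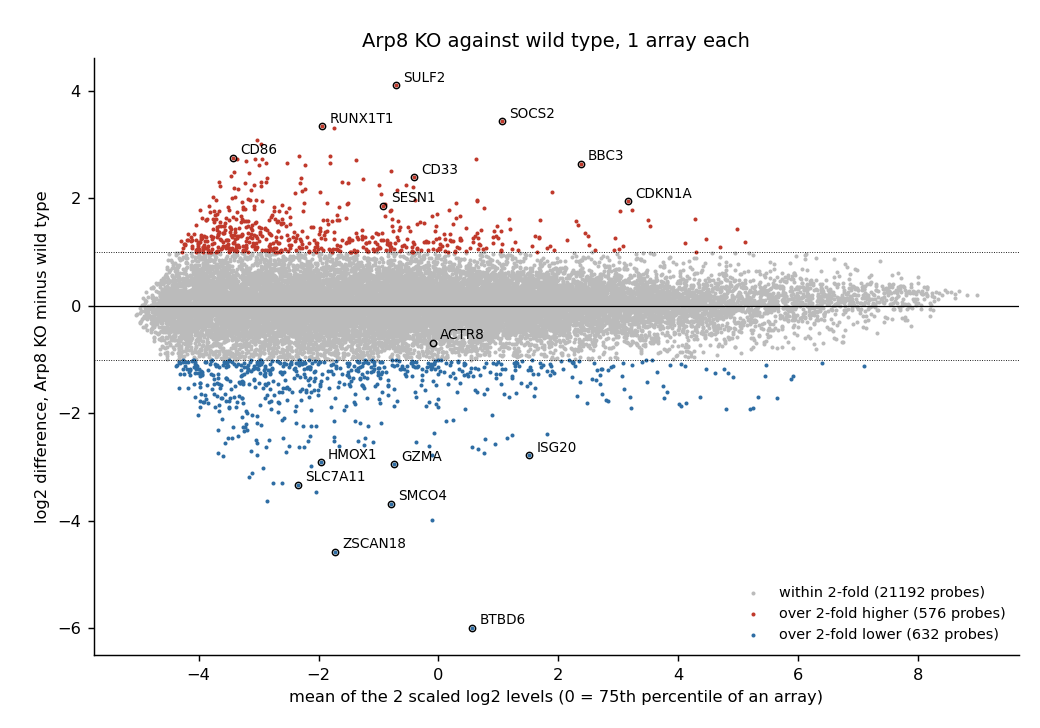
Log2 difference between Arp8 KO and wild type (vertical axis) against the mean of the scaled log2 levels on both arrays (horizontal axis), 1 point per probe. Of 22400 probes, 576 lie above the upper dotted line at 2-fold and 632 below the lower one, most of them at low mean levels, and ACTR8 lies between the lines.

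Among genes above background on both arrays and not beside a bright spot, the widest difference in either direction was that of BTBD6. It is a BTB domain protein that serves as an adaptor of ubiquitin ligases. Its single measured probe stood at 3.56 in wild type, 3.22 in Arp5 KO, -2.43 in Arp8 KO and -0.49 for Arp8 OE, 63.8-fold lower in Arp8 KO. ZSCAN18, a zinc finger gene, followed at 0.57, -0.14, -4.01 and -3.20 (23.8-fold lower in Arp8 KO), and SMCO4 at 1.04, 0.38, -2.64 and -2.67 (difference -3.68). These 3 genes were low on the Arp8 KO and the Arp8 OE arrays and nearer to wild type in Arp5 KO. SLC7A11, the cystine importer, had another order. It stood at -0.68 in wild type and in Arp8 OE, at -2.74 in Arp5 KO and at -4.01 in Arp8 KO (a difference of -3.33). The 10 lowest also held other genes. The cytokine TNF was at -0.63 in wild type and -3.62 in Arp8 KO, and the protease gene GZMA at 0.74 and -2.21. CD96, an adhesion receptor of lymphocytes, was lower on both of its measured probes, by -3.46 and -2.63. The others were DMKN (-3.29), HMOX1 (-2.91) and ISG20 (-2.78). Several of these sizes depended on the background correction. With normexp the difference was -3.15 for ZSCAN18, -2.11 for SLC7A11, -2.43 for the CD96 probe at -3.46, -1.80 for DMKN, -2.06 for TNF, -2.0022 for HMOX1 and -5.41 for BTBD6.

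On the other side, SULF2, a sulfatase that trims heparan sulfate at the cell surface, stood at -2.76 in wild type, -2.14 in Arp5 KO, 1.35 in Arp8 KO and -1.36 for Arp8 OE (17.2-fold higher in Arp8 KO). SOCS2, a feedback inhibitor of cytokine receptors, was higher on both probes, by 3.43 and 2.79. Its brighter probe stood at -0.66 in wild type, 1.71 in Arp5 KO, 2.77 in Arp8 KO and 0.14 for Arp8 OE. RUNX1T1, a corepressor known as the ETO partner of RUNX1 in leukemia, was at -3.61 in wild type and -0.27 in Arp8 KO, with Arp5 KO (-1.13) and Arp8 OE (-1.73) between them. CD86, a costimulatory ligand, was at -4.81, -4.55 and -4.69 in wild type, Arp5 KO and Arp8 OE and at -2.06 in Arp8 KO alone. The apoptosis gene BBC3, the glutamate receptor subunit GRIN2C (3.303), the kinase NEK3 (3.02), the cytidine deaminase APOBEC3H (2.78), smooth muscle actin ACTA2 (2.71) and MAB21L2 (2.66) completed the 10 highest. This ranking and that of the 10 lowest left out genes whose widest probe lay beside a bright spot, such as PHLDA3. With normexp RUNX1T1 was at 2.16, GRIN2C at 2.29, NEK3 at 1.70, APOBEC3H at 1.99, CD86 at 1.41 and MAB21L2 at 1.83, while SULF2 was at 3.49. Among genes with several probes, CD33, a sialic acid receptor, was higher by 2.39 and 2.37, TMEM150A by 1.96 and 1.92, and PLEKHA1 by 1.77 and 2.12. LGR6, RGS16, SYT15 and TNFRSF21 were also over 2-fold higher on every measured probe, but with normexp 1 probe each of SYT15 (0.96) and TNFRSF21 (0.84) was not. The same held for 1 probe of SESN1 (0.84), a p53 target described below. A further SYT15 probe, well above background in Arp8 KO and not in wild type, was higher by a bound of 1.90-fold.

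**Figure D2:**
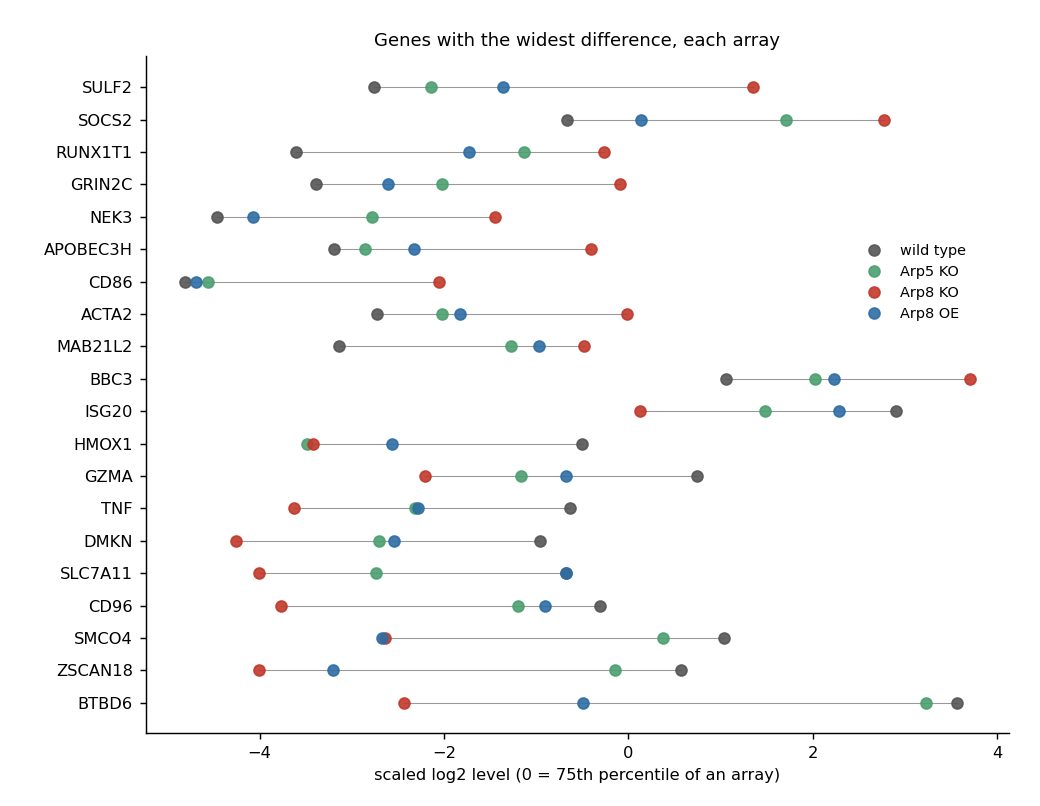
Scaled log2 level (horizontal axis) of the 10 genes highest and the 10 lowest in Arp8 KO against wild type, 1 point per array. Genes whose widest probe lay beside a bright spot are left out. Arp8 KO lies at an end of every row except HMOX1, where Arp5 KO (-3.48) lies below it (-3.42), and SMCO4, where Arp8 OE (-2.67) lies below it (-2.64). BTBD6 spans the widest range, from 3.56 to -2.43.

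The same agreement between probes held at the lower end. GABARAPL1, which marks autophagosomes, was lower by -2.53 and -2.63, ANXA2 by -2.53 and -2.47, ZNF93, a zinc finger repressor, by -2.50 and -2.46, and the transcriptional cofactor EYA4 by -2.52 and -2.46. ADCY7, an adenylate cyclase of hematopoietic cells, was lower by -2.30 and -2.25, and with normexp by -1.01 and -1.11. For CKLF, ALOX5AP and CREB5 the Arp5 KO array was low as well. ALOX5AP, which leukotriene synthesis needs, stood at 0.73 in wild type, -0.78 in Arp5 KO, -1.13 in Arp8 KO and 1.16 for Arp8 OE on its brighter probe. One probe each of CKLF, CREB5, ZNF93, RGS16 and TNFRSF21 lay beside a spot bright on 1 array alone.

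For 1044 probes the signal was well above background in wild type but not in Arp8 KO, and for 1135 it was the other way round. These give a bound, against the lowest signal well above background on the other array. The bound passed 2-fold for 436 and 252 of them. FGD3, a guanine exchange factor, stood at 0.79 in wild type, 0.62 in Arp5 KO, -6.36 in Arp8 KO and -5.80 for Arp8 OE, at least 62.3-fold lower in Arp8 KO. The bounds were at least 31.3-fold for the deubiquitinase YOD1, 25.8-fold for S100A10, 23.5-fold for ANKS6 and 23.2-fold for ZNF256. S100A10 encodes the binding partner of ANXA2. It was not well above background in Arp5 KO (-6.39), whereas ANKS6 (-0.89) and ZNF256 (-1.47) were well above background there. In the other direction TENM2 was at least 16.8-fold higher in Arp8 KO and read -6.81, -6.93, -0.93 and -0.91 in wild type, Arp5 KO, Arp8 KO and Arp8 OE. PCNX2, MEGF11, NRP1 and NECAB2 followed at bounds of 6.81-, 6.78-, 6.24- and 6.16-fold.

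Genes were then taken by pathway. The lists were chosen with earlier results of these data known, so their shares are a description and no independent test. Among lists with at least 10 measured probes, the p53 targets had the highest median. Of their 50 measured probes, 25 were over 2-fold higher in Arp8 KO and none lower, against 2.57% and 2.82% of all probes, and the list's median was 0.95 against 0.03 for all probes. The median was 0.17 in Arp5 KO and 0.28 in Arp8 OE, each against the same wild-type array. It kept its sign under 5 other scalings, between 0.78 and 0.95, though the series matrix, a multiple of the same signal, could not change it. By role the medians in Arp8 KO were 1.41 for arrest genes, 0.69 for the p53 feedback loop, 0.42 for apoptosis and 0.95 for repair and metabolism.

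CDKN1A encodes p21, the inhibitor of cyclin-dependent kinases. Its probe printed 10 times stood at 2.19 in wild type, 2.41 in Arp5 KO, 4.14 in Arp8 KO and 2.92 for Arp8 OE, a difference of 1.95. Over its 10 spots the SD of the difference was 0.0671. The second probe gave 1.48. BBC3 encodes PUMA, a BH3-only protein that triggers apoptosis. It was higher by 2.64 on the probe that read 1.06 in wild type and 3.70 in Arp8 KO, and by 2.30 on a dimmer probe beside a bright spot. Another BBC3 probe, near the top of the array's range at 7.36 and 7.53, differed by 0.16. ZMAT3, an RNA-binding protein, was higher by 2.08 and 1.33, the stress sensor SESN1 by 1.86 and 1.84, and TP53INP1 by 1.53. PHLDA3, an inhibitor of AKT, was higher by 2.74 but lay beside a bright spot. MDM2, the ligase which degrades p53, was higher on all 4 of its probes, by 0.36, 0.69, 1.16 and 1.36, of which the last 2 passed 2-fold. The death receptors TNFRSF10B (1.60 and 1.17) and FAS (1.04) were higher as well. Not every member was. PMAIP1, which encodes NOXA, stood at 2.73 in wild type and 1.98 in Arp8 KO (-0.76), and the 3 probes of BAX gave 0.34, -0.18 and -0.33. GADD45A differed by 0.13. The lists of cell death genes were read as well. In the BCL2 family, 2 of 26 probes were over 2-fold higher, both of them BBC3 (7.69%, against 2.57% of all probes). No caspase probe of 12 passed 2-fold. Since 2.57% of all probes were higher and 2.82% lower, so few probes say little.

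Among the same lists the targets of BACH1 and NRF2 had the lowest median. Of 34 probes, 11 were over 2-fold lower in Arp8 KO (32.4%, against 2.82% of all probes) and none higher. In all, 33 of 34 were below 0. The list's median was -0.74, against 0.03 for all probes. It was -0.20 in Arp5 KO and -0.32 in Arp8 OE. HMOX1, which opens the heme ring, stood at -0.51 in wild type, -3.48 in Arp5 KO, -3.42 in Arp8 KO and -2.56 for Arp8 OE. FTH1, the heavy chain of ferritin, was lower by between -1.71 and -1.91 on 4 probes. Its other probe, beside a bright spot, gave -0.70. The probe at -1.71 read 6.50 in wild type, 6.18 in Arp5 KO, 4.79 in Arp8 KO and 5.72 for Arp8 OE. The light chain FTL was lower by -0.49 to -0.55 on 3 probes, none past 2-fold. NQO1, a quinone reductase, was lower by -1.86, GCLM, the modifier subunit of glutamate-cysteine ligase, by -1.26, and GSR, glutathione reductase, by -1.13 and -0.74. Thioredoxin, TXN, was lower by -1.69 and -1.72. It read 5.21 in wild type, 5.04 in Arp5 KO, 3.52 in Arp8 KO and 3.69 for Arp8 OE, and it belongs to a block of neighbouring genes described below. EPHX1 (0.02), TKT (-0.03) and SLC48A1 (-0.12) differed least. GPX3, a secreted glutathione peroxidase outside this list, was at least 7.87-fold lower in Arp8 KO. One of the 3 GSTM3 probes was bright in wild type alone, but it lay beside a bright spot and the others were above background on no array. The repressor BACH1 itself (0.04 and 0.34) and NFE2L2, which encodes NRF2 (-0.13), stayed within 2-fold.

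**Figure D3:**
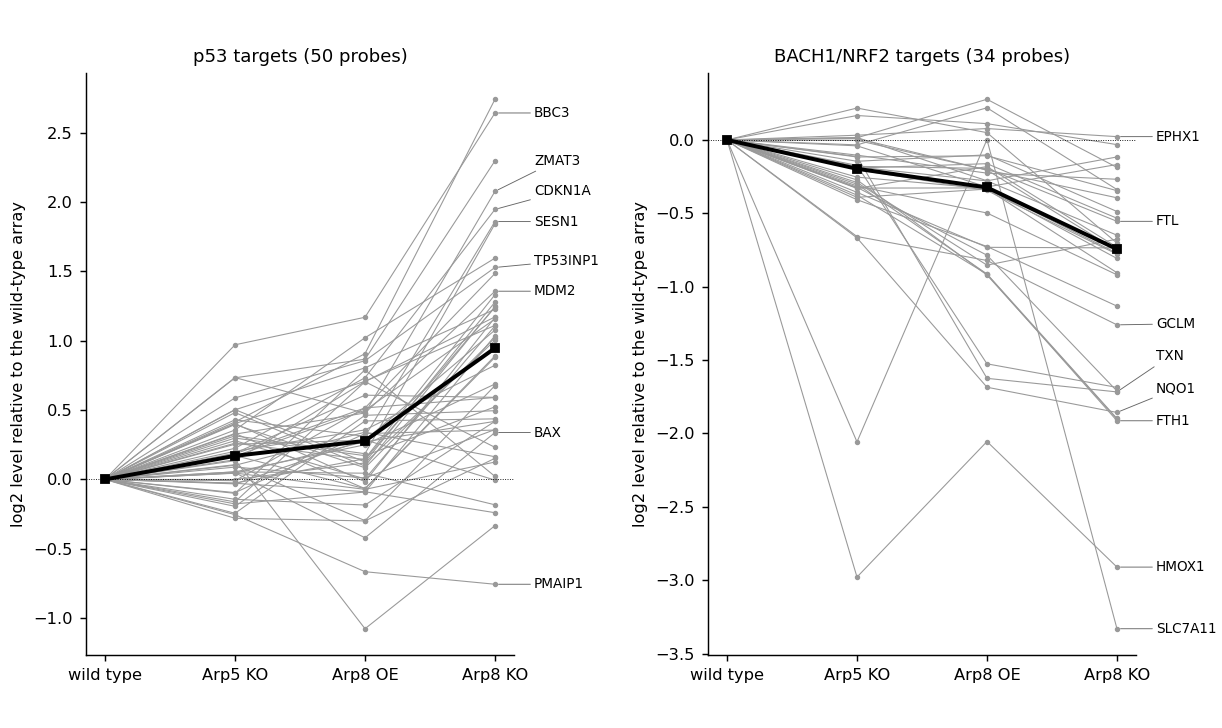
Log2 level relative to wild type (vertical axis) on the 4 arrays (horizontal axis) for the 50 probes of p53 targets (left) and the 34 of BACH1/NRF2 targets (right), 1 thin line per probe, with the median as the thick line. The p53 median goes from 0.17 in Arp5 KO to 0.95 in Arp8 KO and the BACH1/NRF2 median from -0.20 to -0.74.

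Promoters of GCLM and of members of other lists that moved past 2-fold are printed here, because these lists are defined by a factor or element and the reader can see the element in place. They are RefSeq sequences of build GRCh38.p14 around the start of the gene, and capitals mark a match on either strand. The letters TGACNNNGC, the core of the antioxidant response element, occurred in 3 of 15 promoters of measured BACH1/NRF2 targets (GCLM, PGD and TXNRD1). They occurred in 13.6% of all 27305 promoters and in 15.7% of the 9229 promoters of measured genes. For HMOX1 the known enhancers lie far upstream, outside such a window. A match is a string of letters and was not shown here to be bound. The printed promoters, apart from that of TXN, hold a match, and many members past 2-fold do not. NQO1 and TXN were over 2-fold lower without the antioxidant core, while PGD and TXNRD1 hold it and stayed within 2-fold.

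GCLM (chr1:93909381-93909680, minus strand): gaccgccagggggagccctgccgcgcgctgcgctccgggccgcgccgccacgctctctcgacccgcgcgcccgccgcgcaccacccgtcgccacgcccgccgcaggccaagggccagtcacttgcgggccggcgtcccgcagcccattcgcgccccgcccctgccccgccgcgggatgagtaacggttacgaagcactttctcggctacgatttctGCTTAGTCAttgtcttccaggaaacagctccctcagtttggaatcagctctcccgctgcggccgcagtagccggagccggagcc
HSP90B1 (chr12:103930160-103930459, plus strand): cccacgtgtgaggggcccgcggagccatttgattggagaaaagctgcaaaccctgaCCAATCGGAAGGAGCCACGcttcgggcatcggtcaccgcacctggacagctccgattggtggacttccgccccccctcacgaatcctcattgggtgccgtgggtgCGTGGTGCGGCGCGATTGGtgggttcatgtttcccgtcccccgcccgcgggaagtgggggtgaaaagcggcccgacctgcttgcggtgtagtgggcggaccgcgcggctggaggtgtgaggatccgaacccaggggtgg
HMMR (chr5:163460382-163460681, plus strand): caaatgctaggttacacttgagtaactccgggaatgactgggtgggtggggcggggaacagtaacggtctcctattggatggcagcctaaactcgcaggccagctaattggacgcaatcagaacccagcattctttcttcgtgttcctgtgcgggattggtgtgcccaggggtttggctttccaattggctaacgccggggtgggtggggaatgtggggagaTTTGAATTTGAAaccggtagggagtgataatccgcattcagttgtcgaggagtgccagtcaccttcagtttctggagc
MX1 (chr21:41420308-41420607, plus strand): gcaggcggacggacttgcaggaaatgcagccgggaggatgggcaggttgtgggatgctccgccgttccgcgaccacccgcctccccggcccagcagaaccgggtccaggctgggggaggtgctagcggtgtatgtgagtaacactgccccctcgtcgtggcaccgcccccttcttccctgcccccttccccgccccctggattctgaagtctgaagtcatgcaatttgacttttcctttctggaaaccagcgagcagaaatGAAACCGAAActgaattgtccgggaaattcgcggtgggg
CISH (chr3:50611725-50612024, minus strand): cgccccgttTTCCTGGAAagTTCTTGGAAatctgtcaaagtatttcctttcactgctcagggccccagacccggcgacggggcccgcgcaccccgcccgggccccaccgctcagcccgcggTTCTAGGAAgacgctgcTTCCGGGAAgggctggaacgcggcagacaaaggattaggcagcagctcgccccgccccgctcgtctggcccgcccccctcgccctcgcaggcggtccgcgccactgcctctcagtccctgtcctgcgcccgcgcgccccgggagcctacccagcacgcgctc
TXN (chr9:110256458-110256757, minus strand): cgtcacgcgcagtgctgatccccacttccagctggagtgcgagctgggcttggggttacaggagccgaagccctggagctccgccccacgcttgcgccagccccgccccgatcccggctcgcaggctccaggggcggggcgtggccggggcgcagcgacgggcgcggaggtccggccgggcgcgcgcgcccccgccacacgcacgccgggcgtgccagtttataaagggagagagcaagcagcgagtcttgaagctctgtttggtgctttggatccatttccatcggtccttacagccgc

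GCLM holds 1 such match. HSP90B1 holds 2 matches to the ER stress element, HMMR 2 adjoining matches to the cell cycle genes homology region (TTTGAA), MX1 1 match to the interferon-stimulated response element and CISH 4 to a STAT element (TTCNNNGAA). TXN, shown for its position, holds no match to the antioxidant core. A further 3 elements were searched by name. The heat shock element was found in 3 of 17 promoters of measured heat shock genes (0.487% of all promoters), a p53 element in 1 of 28 promoters of p53 targets (0.392%), that of TRIAP1, and the letters CACNNCAC of a sterol element in 5 of 25 promoters of lipid synthesis genes (14.7%).

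Of 38 heat shock probes, 11 were over 2-fold lower in Arp8 KO (28.9%, against 2.82% of all probes) and none was higher. The median was -0.29, close to those of Arp5 KO (-0.26) and Arp8 OE (-0.32). The counts differed more, as 3 of 37 probes were over 2-fold lower in Arp5 KO and 0 of 37 in Arp8 OE. Each count takes only probes well above background in wild type and in that culture, which leaves out probes that fell to background there. HSPA1A, the stress-inducible HSP70, was lower on all 3 probes, by -2.62, -1.29 and -1.17. The first of them read -0.35 in wild type, -3.01 in Arp5 KO, -2.96 in Arp8 KO and -0.96 for Arp8 OE. HSPA1L, its neighbour and close copy, was lower by -1.63, and the array cannot be taken to keep such copies apart. Against wild type HSPA1L was also lower in Arp5 KO (-1.93) and in Arp8 OE (-2.10), where it was not among the probes counted. HSPB1, the small heat shock protein HSP27, was lower by -1.36, -1.31 and -1.30, and HSP90AA1 by -0.18 to -1.24 on 4 probes. The constitutive HSPA8 (-0.23, -0.04, 0.02 and 0.73) and the factor HSF1 (0.14) stayed within 2-fold. In the endoplasmic reticulum, 24 of 27 probes were below 0, at a median of -0.50 against -0.30 in Arp5 KO and -0.52 in Arp8 OE, but HSP90B1 (-1.37 on 1 of 2 probes) and EDEM1 (-1.10 on 1 of 2) alone passed 2-fold. The chaperone HSPA5 was lower by -0.70 and -0.46. The ER stress element was found in 6 of 19 promoters of these genes, in 0.0806% of all promoters and in 0.152% of those of measured genes.

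The proteasome, which degrades ubiquitylated proteins, was shifted as a whole by less than 2-fold. Of its 49 probes, 46 were below 0 and none past 2-fold, and the median of -0.53 compared with -0.24 in Arp5 KO and -0.34 in Arp8 OE. PSMD11 (-0.97) and PSMD4 (-0.95 and -0.86), of the regulatory particle, were lowest, and PSMA6 (0.05 and 0.06) was highest. Ribosomal protein genes went the other way by a smaller amount. Of 117 probes, 105 were above 0 with a median of 0.25 (0.13 with quantile normalization), and none passed 2-fold. In Arp8 OE their median was 0.23. ATF4 targets, which supply amino acids under stress, had a median of -0.25. SLC7A11 and DDIT3 were the members past 2-fold, both lower (2 of 32 probes, 6.25%, against 2.82% of all probes). DDIT3, the stress factor CHOP, read -0.56 in wild type, -1.20 in Arp5 KO, -1.60 in Arp8 KO and 0.13 for Arp8 OE. The tRNA synthetases (-0.02), respiratory chain (0.02, and -0.02 at the lowest of 5 other scalings) and reference genes (-0.05) lay near 0.

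Few genes of proliferation passed 2-fold, and their shares lay near the 2.82% of all probes that were lower. All 32 mitosis probes were below 0, at a median of -0.45 against -0.15 in Arp5 KO and -0.03 in Arp8 OE, and 1 passed 2-fold (3.12%). That was HMMR, a spindle protein, at 4.42 in wild type, 4.23 in Arp5 KO, 3.31 in Arp8 KO and 4.20 for Arp8 OE. The motor KIF11 was lower by -0.96 and -0.34, and MKI67 differed least (-0.04). The cell cycle genes homology region was present in 15 of 23 promoters of these genes, of which HMMR alone passed 2-fold. It was present in 15.4% of all promoters and in 9.52% of those of measured genes. DNA replication genes had a median of -0.31 with 44 of 48 probes below 0, and 2 passed 2-fold (4.17%). One was MCM2, a subunit of the replicative helicase, at 4.49 in wild type, 2.87 in Arp5 KO, 3.005 in Arp8 KO and 4.59 for Arp8 OE. The other was 1 of 2 probes of RFC3 (-1.20). Homologous recombination and Fanconi genes had a median of -0.32, and 1 of 24 probes (4.17%) passed 2-fold, that of FANCC (-1.09), another member of the block described below. The G1/S genes lay at -0.02, with MYC at 0.83 and 1 RBL1 probe at -2.31 beside a bright spot. Histone genes lay at -0.08, and none of 30 probes passed 2-fold.

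All 16 probes of the 11 pre-B marker genes stood well above background on all 4 arrays, which bears on the lineage of the cells and not on their genotype. In the pre-B receptor list, 2 of 15 probes were over 2-fold lower (13.3%, against 2.82% of all probes). The list's median was -0.56, against -0.04 in Arp5 KO and 0.12 in Arp8 OE. VPREB3 stood at 3.002 in wild type, 1.79 in Arp5 KO, 0.61 in Arp8 KO and 3.31 for Arp8 OE. VPREB1, a surrogate light chain, was at 5.25 and 3.99 in wild type and Arp8 KO (-1.26), and the signalling chain CD79A at 4.61 and 3.75 (-0.86). IGLL1 (-0.21, -0.18 and 0.24) stayed close to 0. Of the surface molecules, the inhibitory receptor CD22 read 0.06 in wild type, -0.83 in Arp5 KO, -2.52 in Arp8 KO and -0.67 for Arp8 OE, and the interleukin 7 receptor IL7R read 4.04, 4.004, 2.35 and 3.18. CD38 (-1.09) and CD52 (-1.06) were also over 2-fold lower, whereas MME (-0.03 and 0.18), which encodes CD10, was not. Among B-lineage factors, SPIB was lower by -2.40 and -1.05, the coactivator POU2AF1 by -1.17 and BCL6, on a probe beside a bright spot, by -2.75. PAX5 (-0.08), EBF1 (-0.06 and 0.12) and TCF3 (-0.02 and 0.36) were close to wild type. The list of V(D)J recombination and end joining had a median of -0.07. In it, 1 of 16 probes was over 2-fold higher (6.25%, against 2.57% of all probes). That was DNTT, the template-free polymerase TdT, which stood at 2.35 in wild type, 3.18 in Arp5 KO, 4.12 in Arp8 KO and 3.37 for Arp8 OE, whereas the recombinase genes RAG1 (0.98 and 0.79) and RAG2 (-0.49) stayed within 2-fold.

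Markers of other cells were mostly below background. In Arp8 KO, 4 of 12 T and NK cell probes, 5 of 13 myeloid, 4 of 16 erythroid and megakaryocytic and 1 of 13 stromal probes stood above it, against 4, 5, 4 and 2 in wild type. CD3D, MPO, GATA1 and VWF were among those above background on no array. The summed linear signal, relative to the 75th percentile, lay between 3.39 and 5.31 over the 4 arrays for the T and NK list and between 12.6 and 16.1 for the myeloid list, and was not lowest or highest in Arp8 KO for either. For the erythroid and stromal lists it was 0.716 and 4.23 in Arp8 KO against 0.844 and 2.99 in wild type. CD33 was the myeloid marker past 2-fold.

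Genes of cytokine signalling and of the immune response went both ways. In the SOCS list, 5 of 31 probes were over 2-fold higher (16.1%, against 2.57% of all probes) and the median was 0.26. Besides SOCS2 these were the inhibitor CISH, at 2.28 and 1.02, and 1 of 2 probes of the transcription factor STAT5A (1.46), which lay beside a bright spot. The brighter CISH probe read -3.44 in wild type, -2.19 in Arp5 KO, -1.16 in Arp8 KO and -2.70 for Arp8 OE. SOCS1 was not higher (-0.86 and -0.49). The STAT element occurred in 1 of 14 promoters of this list, that of CISH, in 7.88% of all promoters and in 6.35% of those of measured genes. Interferon-stimulated genes had a median of -0.33, and 6 of 30 probes were over 2-fold lower (20.0%, against 2.82% of all probes). MX1, a GTPase against RNA viruses, stood at 1.19 in wild type, -0.26 in Arp5 KO, -0.94 in Arp8 KO and 1.16 for Arp8 OE, and IFI44 at 2.23, 1.51, -0.33 and 0.62. ISG20, a nuclease, belongs to this list, and so do XAF1 (-1.32 and -1.09, and -0.79 on its other probe) and OAS2 (-2.26 beside a bright spot, and -0.57). ISG15 (-0.15) and IFIT3 (-0.13) stayed near 0. The interferon element was found in 11 of 17 promoters, in 3.65% of all promoters and in 3.01% of those of measured genes. MHC class I genes had a median of 0.59 with none of 21 probes past 2-fold. HLA-B was higher by 0.96 and 0.83 and B2M by 0.61, and probes of this family share sequence. Of 11 probes in the NF-kB list, 1 was over 2-fold higher (9.09%, against 2.57% of all probes) and 2 lower (18.2%, against 2.82%). TNF and LTB, neighbours on the genome, were lower (-2.99 and -2.08), and the inhibitor TNFAIP3 was higher (1.60).

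Of 48 probes of lipid synthesis genes, 7 were over 2-fold lower (14.6%, against 2.82% of all probes), none higher, and the median was -0.30 against 0.11 in Arp5 KO and 0.03 in Arp8 OE. By role, fatty acid genes had a median of -0.76 and cholesterol genes -0.23. INSIG1, the sterol sensor partner, stood at 2.37 in wild type, 2.10 in Arp5 KO, 0.84 in Arp8 KO and 2.69 for Arp8 OE. The desaturase FADS2 was lower by -1.12 and, beside a bright spot, -1.21, the elongase ELOVL6 by -1.17, SREBF1, the master factor of these genes, by -1.05 and -0.98, and SCD by -1.05, -0.76 and 0.02. The probe of SC5D at -2.71 lay beside a bright spot and its other probes gave 0.06 and -0.11. Metallothioneins, which bind zinc and copper, were higher, at a median of 0.51. Of 15 probes, 4 were over 2-fold higher (26.7%, against 2.57% of all probes). These were the pairs of MT1X (1.42 and 1.18) and MT1H (1.09 and 1.01), which are near-identical copies, while MT2A gave -0.14, -0.16 and -0.20. Of 50 probes of the cytoskeleton, 2 were over 2-fold higher (4.0%, against 2.57% of all probes) and 4 lower (8.0%, against 2.82%). TPM2 was higher by 1.34 and 1.23, and CNN2 (-1.83 and -1.55), LCP1 (-1.83, beside a bright spot) and CORO1A (-1.03) were lower.

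Few members passed 2-fold in other lists. Among other remodellers 1 of 56 probes was lower (1.79%), among glycolysis and hypoxia genes 1 of 53 each way (1.89%). For heme synthesis and iron uptake it was 1 of 21 lower (4.76%). These lie near the shares of all probes, 2.57% higher and 2.82% lower. Of 18 AP-1 and EGR probes, 3 were higher (16.7%) and 2 lower (11.1%), and so few say little. The members were JUN (1.303), the phosphatases DUSP6 (-1.10) and DUSP4 (-1.06), SPRY1 (1.06), the ETO family member CBFA2T3 (1.83, beside a bright spot), the remodeller CHD3 (-1.07), GSTP1 (-1.11), 1 of 2 probes of FECH (-1.03), 1 of 4 of VEGFA (-1.51) and ALDOC (1.19). JUN stood at -0.04 in wild type, -0.26 in Arp5 KO, 1.26 in Arp8 KO and -0.18 for Arp8 OE, and the SD of its difference over 10 spots was 0.0748.

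**Figure D4:**
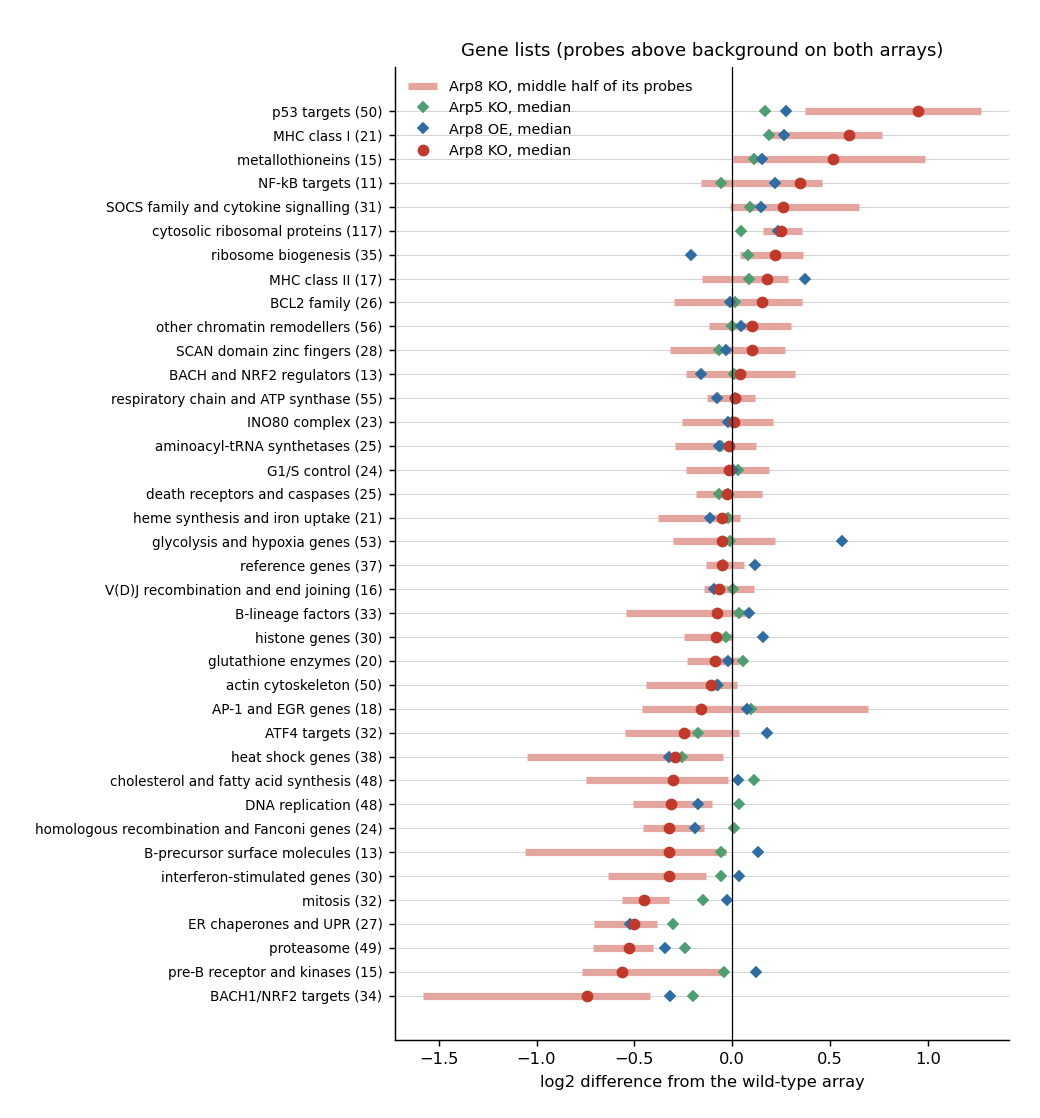
Median log2 difference from wild type (horizontal axis) of each gene list with at least 10 measured probes, the number of which follows its name, for Arp8 KO (circles), Arp5 KO and Arp8 OE (diamonds). Bars span the quartiles in Arp8 KO, and p53 targets (0.95) and BACH1/NRF2 targets (-0.74) lie at the ends.

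The differences were also set out along the genome, with genes in RefSeq order. One stretch was longer than the rest. Over 65 neighbouring measured genes, from LOC100128361 to SLC31A2, the running median of 11 genes was at or below -0.5, and the next longest such stretch, from TOMM40L to DUSP12, spanned 7 genes. In the other direction, 26 windows were at or above 0.5, in stretches of at most 6 genes, the longest being MT1E to MT1H and a stretch of MHC class I genes. The block was chosen by this rule on the Arp8 KO values, after they were seen. Its median there was -0.98 (1.97-fold lower), with 60 of 65 genes below 0, against 0.02 for the 11300 other genes. The 20 genes before it lay at -0.01 and the 20 after it at 0.05. It held 88 probes, 0.393% of those measured, and 44 of them were over 2-fold lower, which is 6.96% of all lower probes. No probe of the block was over 2-fold higher.

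The genes of the block share their place and not a function. They include TXN, the repair genes FANCC, XPA and RAD23B, the condensin subunit SMC2 (-1.56), PTCH1 (-0.98), the Hedgehog receptor, the translocon subunit SEC61B (-1.20), NANS (-1.42), which makes sialic acid, the ubiquitin ligase RNF20 (-1.11) and INIP (-0.93). The quartiles of the block were -1.19 and -0.67, against -0.23 and 0.24 for the other genes. SUSD3 (-2.67) and AOPEP (-2.13) were lowest. NR4A3 (0.73) and CCDC180 (0.71) were highest. FGD3 and ANKS6, given above by their bounds, lie within the block in RefSeq order but were not counted in it, since they were not above background on both arrays. Of the 65 genes, 56 had a promoter in the RefSeq table, each on chromosome 9, as shown above for TXN.

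The other arrays were then read over the same genes. In Arp8 OE the block's median was -1.11 against wild type, with 59 of 65 genes below 0, and in Arp5 KO it was -0.05. Arp8 OE set against Arp5 KO, 2 arrays that played no part in choosing the block, gave -1.12 for the block and -0.03 for the other genes. Arp8 KO set against Arp5 KO gave -0.99. TXN illustrates this, with the Arp8 KO and Arp8 OE arrays low and the others high. DNA was not measured here. Without the genes of the block, the BACH1/NRF2 median was -0.73 and the Fanconi median -0.30.

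**Figure D5:**
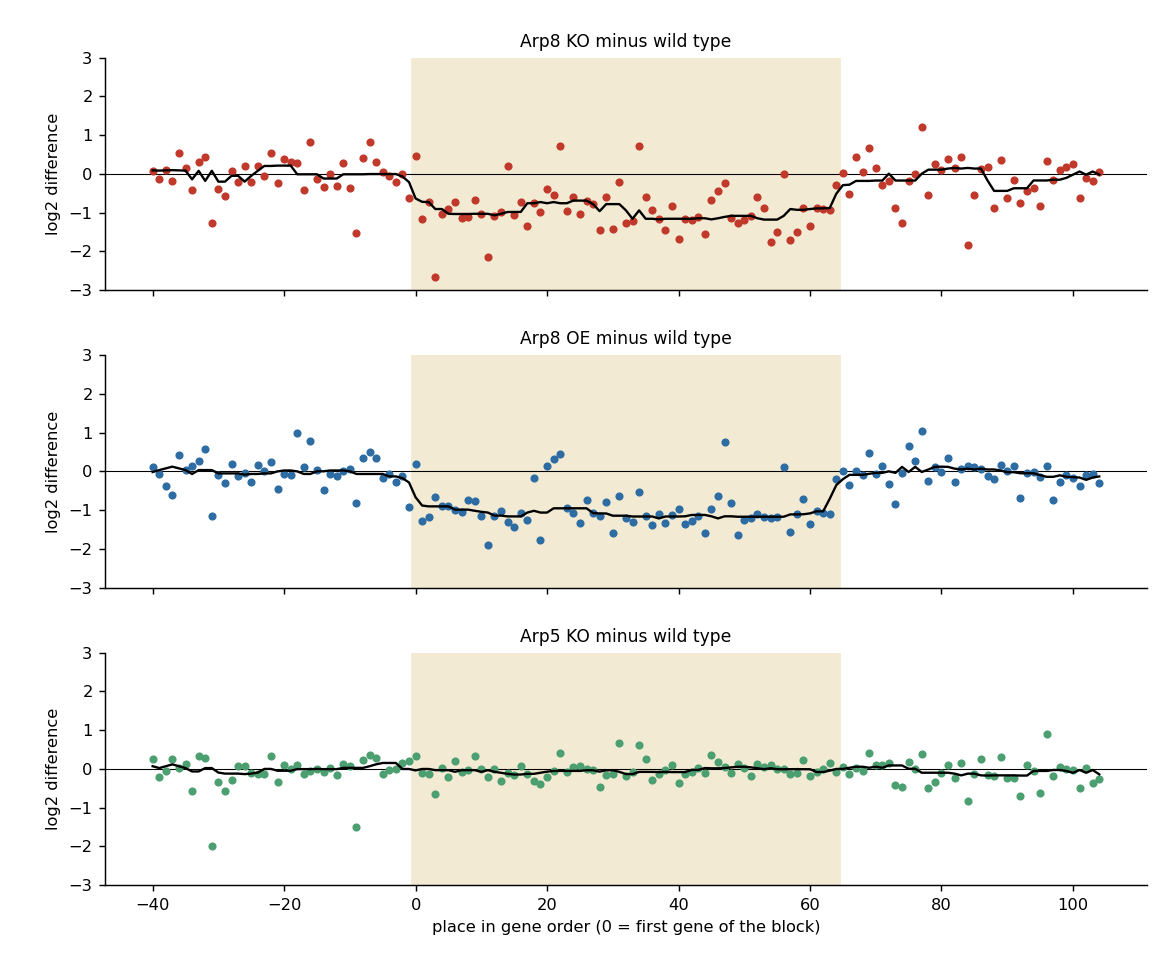
Log2 difference from wild type (vertical axis) of measured genes in RefSeq order (horizontal axis, 0 for the first gene of the block) on the Arp8 KO, Arp8 OE and Arp5 KO arrays, 1 point per gene, with the running median of 11 genes as a line and the block shaded. Within the block the medians are -0.98, -1.11 and -0.05.

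Elsewhere, 16 small groups of neighbouring genes were each over 2-fold different in the same direction, taking gene means. As gene means, 228 genes were over 2-fold higher and 336 lower, and 11365 genes were placed in order. How many such groups a random order would give was not computed, so their number is a description only. The Toll-like receptor genes TLR10, TLR1 and TLR6 were lower by -1.88, -1.52 and -1.66, and TLR1 and TLR6 are near copies. Pairs that were lower included TNF and LTB, GZMK (-1.94) and GZMA, PTGDR (-1.69) and PTGER2 (-2.71), and ANXA6 (-1.31) and CCDC69 (-1.11). CD96 lay between DZIP3 (-1.07) and PHLDB2 (-1.07). Pairs that were higher included ACTA2 and FAS, KDM7A (1.05) and its divergent transcript KDM7A-DT (1.01), and TP53INP1 and NDUFAF6 (1.06).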

How the data were processed

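Expression was measured on 4 one-colour (Cy3) Agilent arrays, each with RNA of 1 Nalm-6 culture. The deposited files hold spot intensity on a linear scale which, per the file headers, the authors obtained with Feature Extraction 10.10.1.1, background-subtracted but not normalized between arrays. The deposited series matrix equalled this intensity times 1 factor per array (1.995 to 2.29) and served as an alternative. File headers name build hg19. Symbols came from RefSeq accessions through a GRCh38.p14 table, for 27204 of 41000 probes (66.4%).

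The log2 processed signal was scaled by the array's 75th percentile and averaged over spots of a probe without outlier spots. A probe passed if at least 50% of its spots were well above background on both arrays. A bright neighbour is a spot within 20 pixels over 2-fold brighter on 1 array alone. Past 2-fold is a description, as 1 array per group allows no test and measures no spread between cultures. The number of arrays limits the precision.

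Named genes were fixed ones (ACTR8, ACTR5, CDKN1A, BBC3, HMOX1, GPX3, GSTM3), the 10 highest and 10 lowest without a bright neighbour, the 10 each way among genes whose probes all differed the same way, members of lists past 2-fold or at their ends, and the 5 largest bounds each way. Some list members within 2-fold, members of the block and neighbouring genes were named after their values were seen. The members and lists were chosen with earlier results of these data known. Alternatives were other scalings, background correction by normexp (offset 50, on median spot signals), filters, thresholds, gene means, Arp8 OE as the reference, and removal of bright neighbours. The block was added later. Scripts were tested on simulated data. Python 3.11.15, numpy 2.4.6, pandas 2.3.3, R 4.3.3 and limma 3.58.1 were used.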

Additional observations from a re-analysis of the deposited data

Results flagged for a closer look

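6 gene lists had medians on opposite sides of 0 in Arp8 KO and in another culture, both beyond the technical SD of 0.085. Each culture was set against the same wild-type array. Lists with either median closer to 0 than that SD were not counted. None of these differences was tested, since each group had 1 array. Against Arp8 OE, the median of ATF4 targets was -0.25 in Arp8 KO and 0.18 in Arp8 OE, that of the pre-B receptor list -0.56 and 0.12, and that of B-precursor surface molecules -0.32 and 0.13. Ribosome biogenesis genes had 0.22 in Arp8 KO and -0.21 in Arp8 OE. Against Arp5 KO, AP-1 and EGR genes had -0.16 in Arp8 KO and 0.10 in Arp5 KO, and cholesterol and fatty acid genes -0.30 and 0.11.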

How the results depend on the processing

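Of 1384 values recomputed under other settings, 1181 stayed within the technical spread or within 1.5 times the count, and 198 moved. The other 5 changed sign with both values beyond the technical SD of 0.085. Changes of sign with a value nearer to 0, such as that of the INO80 median, were not counted among these. The 576 higher and 632 lower probes became 203 and 303 with normexp, 1762 and 2810 without a filter, 228 and 336 as gene means, 1983 and 2031 at 1.5-fold and 55 and 82 at 4-fold. Lower probes were 1068 with a floor for probes above background on 1 array, and higher probes 222 with Arp8 OE as the reference. Genes over 2-fold higher on every probe went from 25 to 10 with normexp, 46 without a filter and 8 against Arp8 OE, and lower ones from 51 to 27 with normexp and 107 without a filter.

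The median of p53 targets was 0.78 with normexp, 0.68 without a filter, 0.85 as gene means and 0.66 against Arp8 OE. Against Arp8 OE the medians of BACH1/NRF2 targets, heat shock genes and the proteasome were -0.41, -0.011 and -0.19, and without probes beside a bright spot that of heat shock genes was -0.46. The block, at -1.01 over its probes, was at -0.79 with normexp and 0.040 against Arp8 OE. The 5 changes of sign with both values beyond the technical SD were as follows. The median of NF-kB targets changed without a filter (-0.12). Against Arp8 OE the sign changed for MHC class II (-0.32), TNFRSF21 (-0.14 on 1 probe), ACTR5 (0.17) and BBC3 (-0.18 on its brightest probe). The Arp8 OE reference is another culture. The cause was not tested. Of 59 probes past 2-fold among the genes named by rank or by symbol, 55 stayed past 2-fold with normexp, 30 moved by over 1.5 times and none changed sign. Those that did not stay were 1 probe each of SESN1 (0.84), SYT15 (0.96), TNFRSF21 (0.84) and AOPEP (-0.90). Quantile normalization took the median of ribosomal protein genes from 0.25 to 0.13. Scaling to the median, cyclic loess and the series matrix each left every value within the spread. The series matrix, a multiple of the same signal, must return the same differences up to rounding once it is scaled alike. Scaling to the median shifts all differences by 1 constant. Neither of these settings can therefore show how far single values depend on the processing. No paired analysis was possible because each group had 1 array. Low signal over background limits the dimmest probes most.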
